A study of Mus musculus with 9 samples.

Results

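Hox and T-box genes encode transcription factors that give cells their position along the body, and their transcripts were examined in mouse squamous cell carcinoma (SCC) cells that differ in focal adhesion kinase (FAK). The genes were named by family, not by a measured value, as 38 genes of the 4 Hox clusters and 8 T-box genes, and each symbol was matched to its Ensembl identifier. Of these 46 genes, 35 were among the 19044 genes of the count table. They comprised 8 of 10 HoxA, 10 of 10 HoxB, 6 of 9 HoxC, 4 of 9 HoxD and 7 of 8 T-box genes. The 11 genes without a row were Hoxa11, Hoxa13, Hoxc11, Hoxc12, Hoxc13, Hoxd1, Hoxd3, Hoxd8, Hoxd12, Hoxd13 and Tbx1, and no gene in the table was at zero counts in all 9 libraries.

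RNA was sequenced from 3 SCC cell lines, FAK-WT, FAK-/- and FAK-kd, with 3 libraries each, which the series describes as biological replicates. All 3 lines go back to skin tumours that a carcinogen and a tumour promoter raised in FVB mice carrying K14CreER and FAK flox/flox alleles, in which keratin 14, a gene of basal keratinocytes, drives an inducible Cre recombinase. FAK was deleted in culture with 4-hydroxytamoxifen, and a FAK-/- clone then received, by retrovirus and with hygromycin selection, either wild-type FAK (FAK-WT) or a kinase-deficient FAK (FAK-kd). FAK-WT and FAK-kd cells thus carry the Ptk2 deletion too, FAK-/- cells are not described as carrying a vector, and with 1 line for each FAK state a difference that goes with FAK and a difference between lines cannot be told apart.

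Hox genes lie in clusters on separate chromosomes, and their order along a cluster follows the order of the body regions in which they act, from the hindbrain at low paralogue numbers to the tail and the ends of the limbs at high ones. Fibroblasts and other connective tissue cells keep a Hox code of the site they came from, held by Polycomb and Trithorax chromatin complexes. T-box factors bind a shared DNA element and pattern organs and limbs, with Tbx5 in the forelimb and heart, Tbx4 in the hindlimb and lung, and Tbx15 and Tbx18 in the dermis, skeleton and other mesenchyme.

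Promoters are shown for the 4 members with the lowest adjusted p among those past the threshold defined below, as the 250 bases before the start site in RefSeq's table for GRCm38.p6, which held promoters for 18 of the 35 members. Capitals mark matches, on either strand, to GGGCGG (a GC box), TTTATNG (bound by posterior Hox and Cdx factors), TGATNNAT (Hox with Pbx), GGTGTGA (a T-box site), TGANTCA (AP-1) and TGACGTCA (CRE), and no 2 matches in these 4 windows overlap. Of the 32851 promoters of this length in the table, 32.7% held the GC box, 9.81% TTTATNG, 7.68% TGATNNAT, 3.33% GGTGTGA, 6.75% TGANTCA and 1.55% TGACGTCA.
Hoxb8 promoter, chr11:96281655-96281904 (plus strand): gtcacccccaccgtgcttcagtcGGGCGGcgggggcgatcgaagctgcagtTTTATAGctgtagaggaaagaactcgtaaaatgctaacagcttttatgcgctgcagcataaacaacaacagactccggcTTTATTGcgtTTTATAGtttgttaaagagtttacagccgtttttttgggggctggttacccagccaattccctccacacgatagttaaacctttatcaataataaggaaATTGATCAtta
Tbx4 promoter, chr11:85896515-85896764 (plus strand): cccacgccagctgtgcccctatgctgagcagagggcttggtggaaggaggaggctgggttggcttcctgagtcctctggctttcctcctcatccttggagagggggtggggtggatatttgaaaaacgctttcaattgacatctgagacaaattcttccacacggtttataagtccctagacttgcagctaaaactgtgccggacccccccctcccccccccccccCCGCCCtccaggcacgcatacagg
Tbx18 promoter, chr9:87731261-87731510 (minus strand): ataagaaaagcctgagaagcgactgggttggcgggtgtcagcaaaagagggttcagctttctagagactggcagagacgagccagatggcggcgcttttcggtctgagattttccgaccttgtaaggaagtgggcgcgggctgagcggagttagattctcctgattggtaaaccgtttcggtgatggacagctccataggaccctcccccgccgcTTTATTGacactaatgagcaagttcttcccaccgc
Tbx20 promoter, chr9:24774304-24774553 (minus strand): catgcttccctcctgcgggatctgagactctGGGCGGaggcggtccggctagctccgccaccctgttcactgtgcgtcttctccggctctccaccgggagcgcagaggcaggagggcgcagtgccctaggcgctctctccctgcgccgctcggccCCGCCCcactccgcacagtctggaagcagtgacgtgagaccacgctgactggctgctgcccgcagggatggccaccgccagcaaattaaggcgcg
The Hoxb8 window held TTTATNG at 3 places, TGATNNAT 11 bases before the start and a GC box. Tbx18 had TTTATNG 35 bases before its start, in a window that overlaps an exon of D030062O11Rik. GC boxes were the matches in the Tbx20 window, at 2 places, and in that of Tbx4, whose RefSeq start lies inside the gene body annotated by GENCODE. The T-box, AP-1 and CRE letters were in none of the 4 windows.

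Library depth decides which of these genes can be compared. FAK-WT replicate 1 held 779755 counts, 2.31% of the median of the other 8 libraries, which held between 25304994 and 37264636. With 3 counts set as the smallest signal, a gene is seen from 3.78 CPM (read counts scaled to library size with edgeR's TMM factors) in FAK-WT replicate 1 but from between 0.0798 and 0.118 CPM in the others, as counting error alone. Ptk2, which encodes FAK, was at 215 ± 1.92 CPM (mean ± SD, n = 3) in the FAK-WT line, 21.6 ± 1.93 in the FAK-/- line and 163 ± 11.5 in the FAK-kd line, in the order of the labels. FAK-/- replicate 3 stood apart for these genes. Of the 23 members with a mean of at least 1 CPM in a line, 20 were higher in it than in the mean of FAK-/- replicates 1 and 2, with a median log2 ratio of 0.25 against 0.01 over all genes at that level, and the members' transcripts had a median GC content of 53.4% against 50.4%. The part of GC content in these results was not tested beyond the GC-corrected counts given below.

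The labels name a squamous carcinoma, and most epithelial markers were near zero. Krt5, Krt14, Krt18 and Cdh1 were each at most 0.240 CPM in any library, while Itga6 lay between 169 and 297 CPM and Itgb4 was at 65.5 CPM in the FAK-WT line, 86.0 in the FAK-/- line and 88.5 in the FAK-kd line. Fibroblast genes were present, with Col3a1 between 1287 and 1913 CPM and Twist2 between 103 and 188, though Dcn and Thy1 were at most 0.506 and 0.0532 CPM in any library. Whether the RNA comes from 1 kind of cell cannot be read from bulk samples, where fewer cells of a type and less RNA per cell cannot be told apart.

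Summed expression lay mostly in the middle of the Hox code, the paralogue groups of the neck and chest, in all 3 lines. The sums cover 18 genes of groups 4 to 9 but 5 of groups 1 to 3 and 5 of groups 10 to 13, so they also follow gene number. Hox genes of paralogue groups 4 to 9 summed to 236 ± 9.86 CPM (mean ± SD, n = 3) in the FAK-WT line, 346 ± 36.0 in the FAK-/- line and 299.7 ± 5.71 in the FAK-kd line. Groups 1 to 3 summed to 25.6 ± 1.95, 40.5 ± 8.81 and 32.5 ± 1.66 CPM in the same order. Groups 10 to 13, which act from the loins to the tail, were at 0.490 ± 0.427, 0.386 ± 0.0323 and 0.198 ± 0.0632 CPM. A mean of at least 1 CPM in some line was reached by 6 HoxA, 8 HoxB, 5 HoxC and 4 T-box genes and by none of HoxD. Tbx4 is among them only through FAK-WT cells.

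Levels of different genes were compared as CPM per kilobase of transcript. Hoxa7 was the highest member in every line, at 70.4 CPM per kilobase in the FAK-WT line, 124 in the FAK-/- line and 114 in the FAK-kd line, for a transcript length of 807 bases. Hoxb9 followed at 19.9, Hoxb6 at 14.1 and Tbx15 at 13.1 in FAK-WT cells. In FAK-/- cells the next was Tbx18 at 22.5, then Hoxb9 at 22.1, Hoxb6 at 20.2 and Tbx15 at 19.3 CPM per kilobase, neighbours whose libraries overlap. The plot of levels by cluster shows the fall from Hoxa9 and Hoxc9 to Hoxa10 and Hoxc10 in each line.

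**Figure D1:**
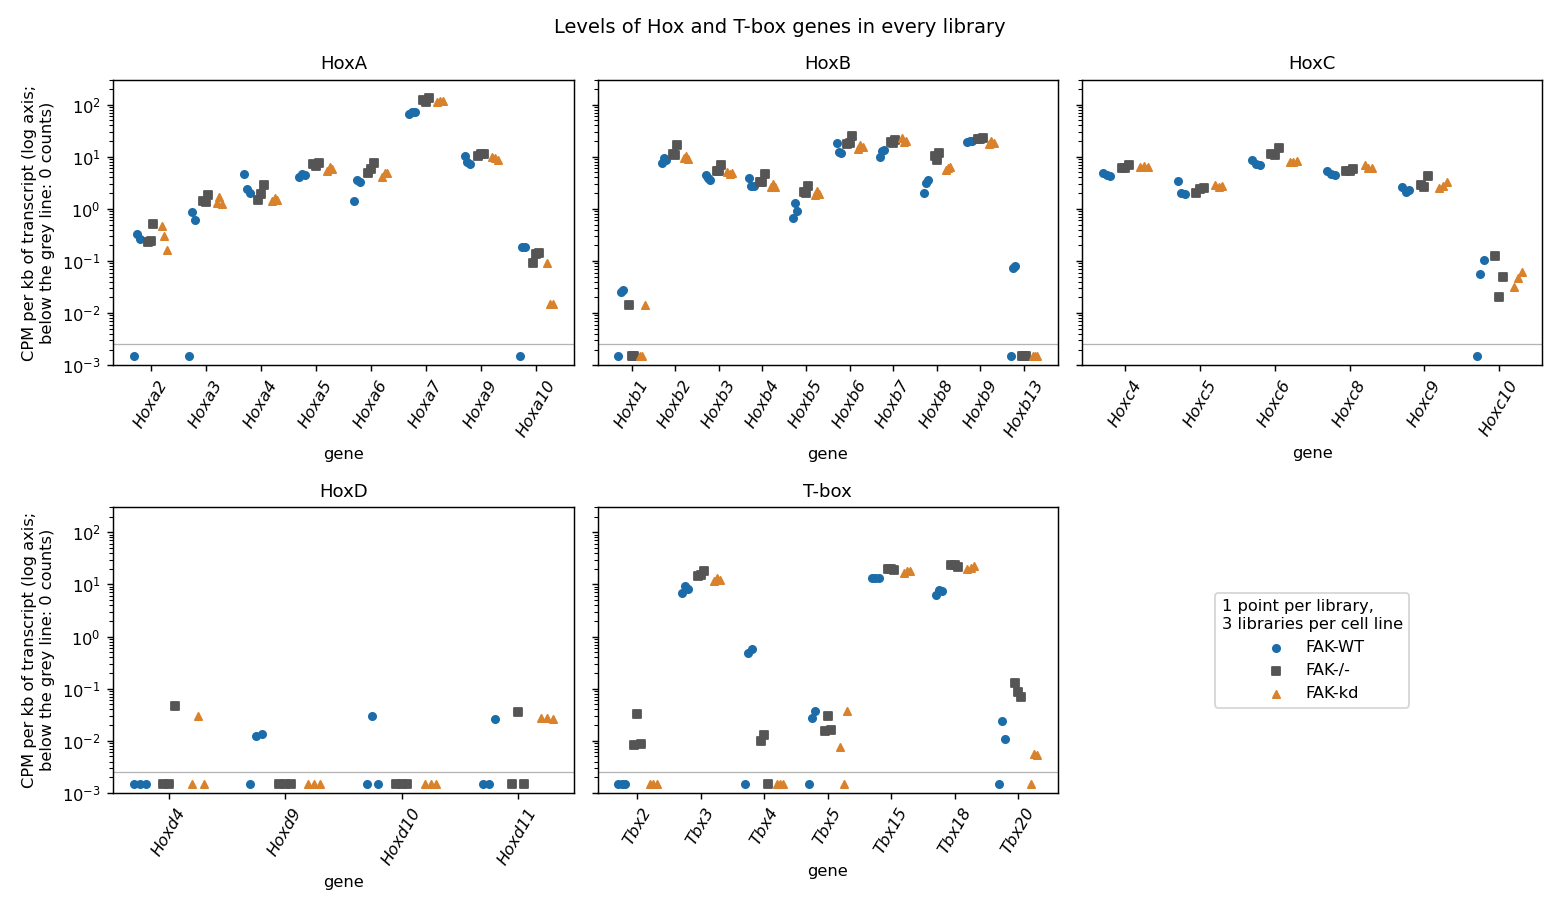
Each point is 1 library, with the level in CPM per kilobase of transcript on a log axis and the genes of each cluster in the order of their paralogue numbers. Points below the grey line had 0 counts, and all 4 HoxD genes of the table lie there or close to it in every library.

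At the count floor, with at most 3 counts in every library, were 6 members: Hoxb1, a hindbrain gene, Hoxd4, Hoxd9, Hoxd10 and Hoxd11, of the cluster known for limb and digit patterning, and Tbx2, a repressor related to Tbx3. No fold change is given for them. The measured HoxD genes together had 0.0458, 0.0452 and 0.0497 CPM in FAK-WT, FAK-/- and FAK-kd cells, so a difference in this cluster was not detectable at this depth. Between the floor and 1 CPM were Hoxa2, Hoxa10, Hoxb13, Hoxc10, Tbx5 and Tbx20. Of these, Hoxa2, Hoxc10 and Tbx5 had between 0 and 28 counts a library and their libraries overlapped in all 3 comparisons.

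The FAK-WT and FAK-/- lines were compared first, to ask which positional genes differ with FAK. The threshold asked for an adjusted p (Benjamini-Hochberg, edgeR's quasi-likelihood test, over all 19044 genes) of at most 0.05 together with a log2 fold change of 1 or more in either direction. Fold changes are given on the log2 scale with their standard error (SE). Of the 35 members, 2 were higher in FAK-WT cells, Tbx4 and Hoxb13 (2.32% of all genes were), and 5 were lower, Hoxa3, Hoxb5, Hoxb8, Tbx18 and Tbx20 (3.06% of all genes). At the adjusted p alone, with no minimum fold, 17 members were lower and 2 higher, where 9.96% of all genes were lower and 8.01% higher. The 17 comprised 5 HoxA, 6 HoxB, 2 HoxC and 4 T-box genes. The median log2 fold change was -0.54 over the 35 members and 0.00 over all genes. Without FAK-/- replicate 3 it was -0.33, with 17 members lower at the adjusted p alone, and with a correction for GC content it was -0.47, again with 17.

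Against FAK-kd cells, a comparison that asks what goes with the kinase activity of FAK and that shares the FAK-WT libraries with the first, 3 members were higher in FAK-WT cells, Hoxa10, Hoxb13 and Tbx4, against 2.37% of all genes. Tbx18 alone was lower, against 2.89%. At the adjusted p alone 10 members were lower, against 10.2% of all genes, and 3 higher, against 7.58%. FAK-kd and FAK-/- cells differed in fewer members. In edgeR none was higher in FAK-kd cells past the threshold (0.914% of all genes), at the adjusted p alone (3.97%) or at an unadjusted p of 0.05, and DESeq2 also called 0. Tbx20 was lower past the threshold (1.09% of all genes), and Hoxb8, Hoxc6, Tbx3 and Tbx20 were lower at the adjusted p alone (3.88%). Since all 3 comparisons draw on the same 3 lines, they are not independent of one another. The plot of differences gives the fold changes with their standard errors.

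**Figure D2:**
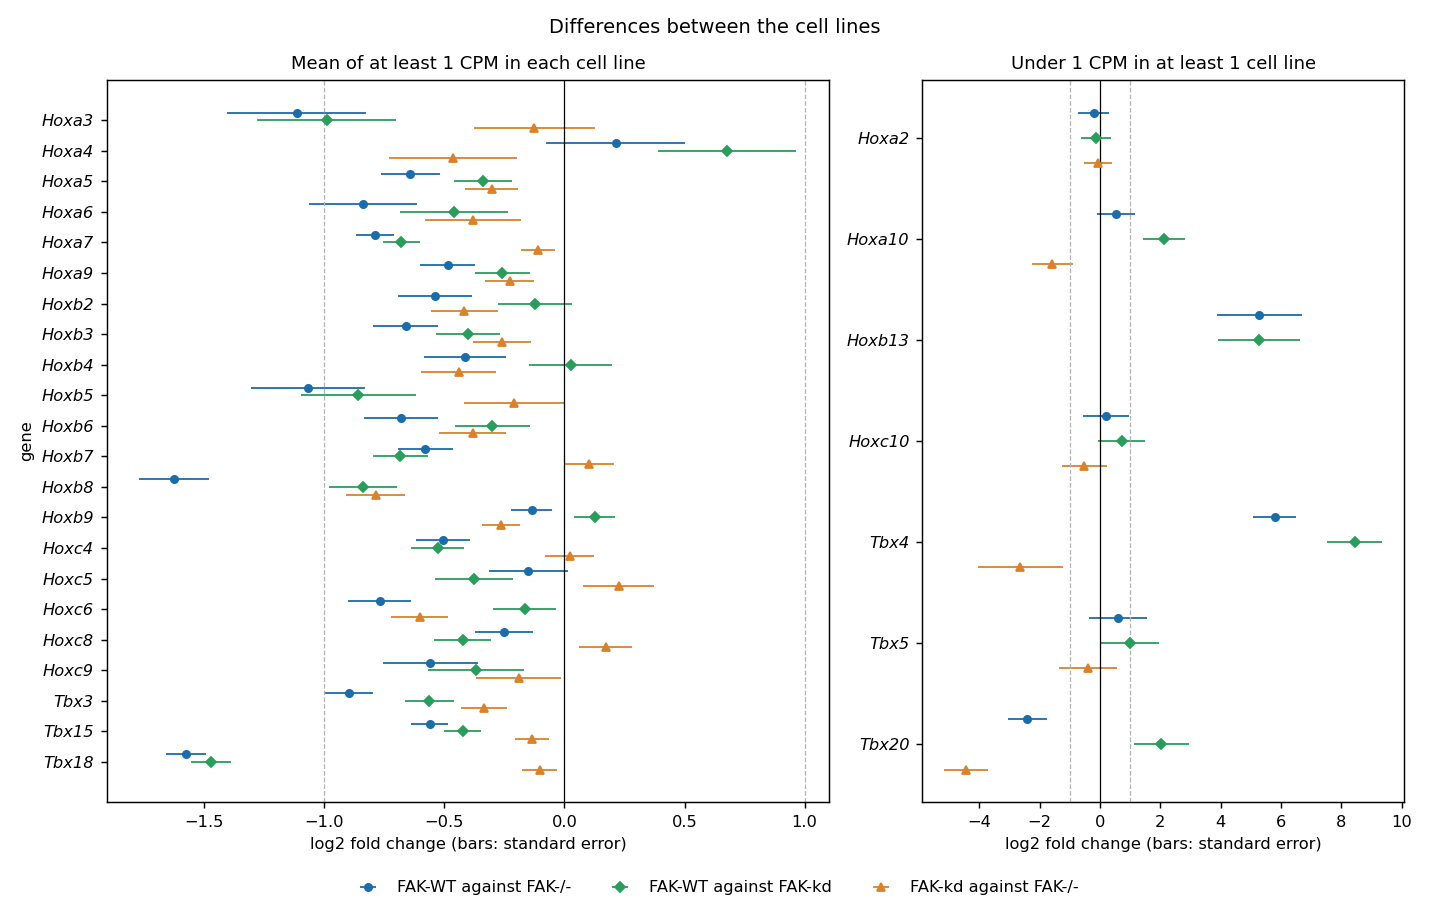
Log2 fold changes from edgeR with standard errors for members with a mean of at least 1 CPM in each line (left) and for members below 1 CPM in at least 1 line but above the count floor (right). Dashed lines mark -1 and 1, and on the left Hoxb8 and Tbx18 stand farthest below zero in FAK-WT against FAK-/- cells, at -1.63 and -1.58.

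The HoxA cluster (mouse chromosome 6) was led by Hoxa7 and Hoxa9. Summed over its 8 genes in the table it stood at 91.7 ± 1.96 CPM in the FAK-WT line, 149 ± 13.1 in the FAK-/- line and 133 ± 3.23 in the FAK-kd line (mean ± SD, n = 3), and no FAK-WT library reached any library of the other lines. Hoxa7, a trunk gene, was at 54.1, 58.8 and 57.6 CPM in the FAK-WT libraries, 97.4, 92.5 and 109 in those of FAK-/- and 90.9, 93.6 and 92.7 in those of FAK-kd. Its log2 fold change was -0.79 (SE 0.08, adjusted p = 3.49e-06) for FAK-WT against FAK-/- and -0.68 (SE 0.08, adjusted p = 1.6e-05) against FAK-kd cells. FAK-WT libraries were all lower than the rest, by less than the minimum fold. Hoxa9, which works with Meis1 in blood cells and leukaemia, was at 21.4, 15.9 and 15.1 CPM in the FAK-WT libraries, 20.8, 22.9 and 23.2 in those of FAK-/- and 20.5, 19.3 and 17.3 in those of FAK-kd. In this gene FAK-WT replicate 1 lay among the FAK-/- libraries, and the log2 fold change was -0.49 (SE 0.11, adjusted p = 0.00682) against FAK-/- and -0.26 (adjusted p = 0.144) against FAK-kd cells.

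Hoxa3 (ENSMUSG00000079560, chr6:52169062-52213336 in GRCm38, minus strand), which patterns the pharyngeal arches and the thymus, was the HoxA gene past the threshold against FAK-/- cells. Its level was 0, 2.29 and 1.56 CPM in the FAK-WT libraries, 3.69, 3.55 and 4.74 in those of FAK-/- and 3.39, 4.40 and 3.19 in those of FAK-kd. FAK-WT replicates 2 and 3 were below every library of the other lines, while the 0 counts of replicate 1 allow up to 3.78 CPM. The log2 fold change was -1.12 (SE 0.29, adjusted p = 0.0135) against FAK-/- and -0.99 (SE 0.29, adjusted p = 0.0259) against FAK-kd cells. Without FAK-/- replicate 3 the first was -0.96 (adjusted p = 0.0141) and without FAK-WT replicate 3 -0.94 (adjusted p = 0.128). Both fell short of the minimum fold, and the second also of the adjusted p. Of the 31-base words of Hoxa3, 26.0% also occur in Hoxaas2 and other noncoding transcripts of the cluster, and the library kit does not mark strand, so sense and antisense reads cannot be told apart. Hoxa7, the highest member, has the same limit, with 20.5% of its words shared with other genes, Hoxaas3 foremost.

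The other HoxA genes were at lower levels. Hoxa5, needed for the lung and the neck skeleton, was at 7.55, 8.65 and 8.51 CPM in the FAK-WT libraries, 13.3, 12.3 and 14.2 in those of FAK-/- and 9.77, 11.9 and 10.7 in those of FAK-kd, with a log2 fold change of -0.64 (SE 0.12, adjusted p = 0.00154) against FAK-/- and -0.34 (adjusted p = 0.0708) against FAK-kd cells. Hoxa6 was at 1.26, 3.19 and 2.88 CPM in the FAK-WT libraries, 4.25, 5.05 and 6.53 in those of FAK-/- and 3.54, 4.34 and 4.28 in those of FAK-kd, with -0.84 (SE 0.23, adjusted p = 0.0164) and -0.46 (adjusted p = 0.198). In Hoxa5 the FAK-WT libraries were below those of the other lines without overlap, and in Hoxa6 this holds for replicates 2 and 3, since replicate 1 had 1 count, under the floor of that library. Hoxa4 was the one member of at least 1 CPM in all 3 lines whose estimate against FAK-/- cells was above zero, at 7.55, 3.83 and 3.23 CPM in the FAK-WT libraries, 2.31, 3.12 and 4.51 in those of FAK-/- and 2.25, 2.58 and 2.37 in those of FAK-kd. Its highest FAK-WT value, in replicate 1, rests on 6 counts, while replicates 2 and 3 had 144 and 112. The log2 fold changes of 0.21 (adjusted p = 0.669) and 0.68 (adjusted p = 0.134) did not pass the test. All FAK-WT libraries were above all FAK-kd libraries but overlapped those of FAK-/-.

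Hoxa10, a gene of the lumbar region and the uterus, had 0, 14 and 13 counts in the FAK-WT libraries, 6, 7 and 9 in those of FAK-/- and 6, 1 and 1 in those of FAK-kd. In CPM it was at 0, 0.373 and 0.375 in FAK-WT and 0.180, 0.0300 and 0.0293 in FAK-kd cells, and the log2 fold change for FAK-WT against FAK-kd cells was 2.12 (SE 0.69, adjusted p = 0.0449). The libraries overlapped through FAK-WT replicate 1, whose 0 counts allow up to 3.78 CPM. The call was lost with DESeq2 (adjusted p = 0.23) and when FAK-WT replicate 2 or 3, FAK-/- replicate 2, or FAK-kd replicate 2 or 3 was left out, with adjusted p between 0.0531 and 0.16.

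The HoxB cluster (chromosome 11) was the one with all of its genes in the table. It summed to 126 ± 1.72 CPM in the FAK-WT line, 181 ± 24.1 in the FAK-/- line and 147 ± 4.56 in the FAK-kd line (mean ± SD, n = 3), with no overlap between any lines. The plot of summed levels shows how FAK-/- replicate 3 widens the spread of its line in the Hox clusters but not in the T-box genes.

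**Figure D3:**
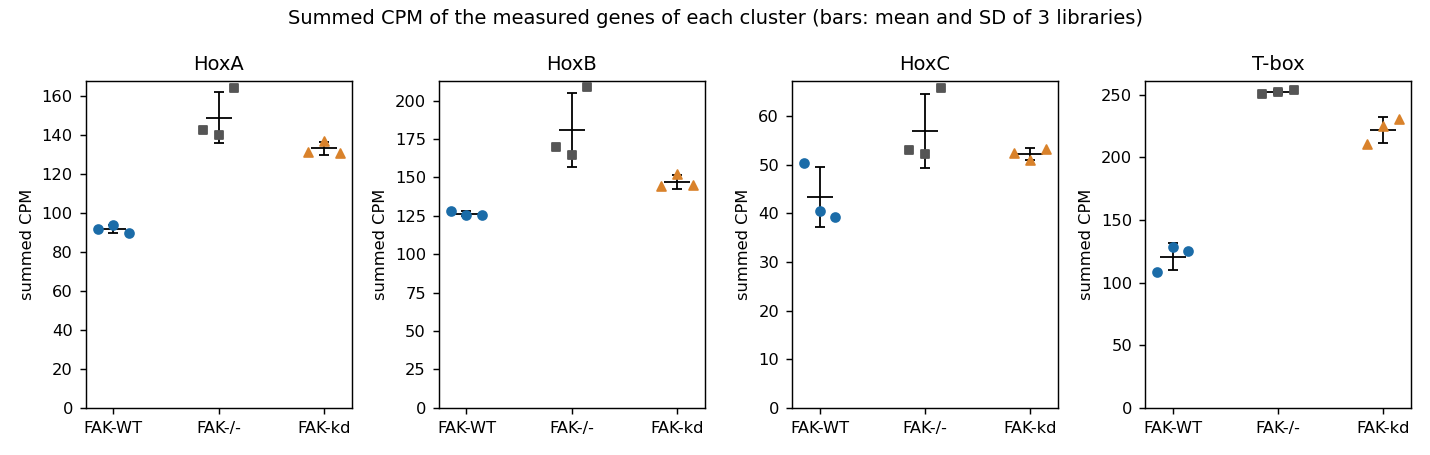
Summed CPM of the measured genes of HoxA, HoxB, HoxC and the T-box set in every library, with the mean and SD of 3 libraries as bars. FAK-WT libraries lie below those of both other lines in each panel, most narrowly in HoxC, where FAK-WT replicate 1 reached 50.4 and the lowest FAK-kd library 50.9.

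Hoxb8 (ENSMUSG00000056648, chr11:96281905-96285315, plus strand), which keeps myeloid progenitors from maturing when it is overexpressed, had the largest difference of the cluster's genes above 1 CPM, and its promoter is shown above. Its level was 3.78, 6.01 and 6.78 CPM in the FAK-WT libraries, 19.4, 16.4 and 22.3 in those of FAK-/- and 10.3, 11.5 and 11.9 in those of FAK-kd. The lines stood in the order FAK-WT, FAK-kd, FAK-/- with no overlap between any 2 of them. The value of FAK-WT replicate 1 rests on 3 counts, the smallest signal set here, while replicates 2 and 3 had 226 and 235. The log2 fold change was -1.63 (SE 0.14, adjusted p = 1.05e-06) for FAK-WT against FAK-/-, -0.84 (SE 0.14, adjusted p = 0.000602) for FAK-WT against FAK-kd and -0.79 (SE 0.12, adjusted p = 0.000859) for FAK-kd against FAK-/- cells. Hoxb8 was past the threshold in the first and at the adjusted p alone in the others. Only 0.0743% of its 31-base words are shared with another gene, Hoxd8. In Hoxb7 and Hoxb9, its neighbours in the cluster, the lines did not stand in this order. Hoxb3 of this cluster, Hoxa5, Tbx3 and Tbx15 did show it, also without overlap. The difference of FAK-WT from FAK-kd cells passed the adjusted p in Tbx3 and Tbx15 but not in Hoxb3 and Hoxa5. That of FAK-kd from FAK-/- cells passed it, among these, in Tbx3 alone. The means of Hoxb2, Hoxb5 and Hoxb6 stood in the same order, as did those of Hoxa3, Hoxa6, Hoxa7, Hoxa9, Hoxc6, Hoxc9 and Tbx18.

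Hoxb7 was at 12.6, 16.3 and 17.7 CPM in the FAK-WT libraries, 24.4, 23.2 and 27.2 in those of FAK-/- and 29.7, 24.5 and 26.2 in those of FAK-kd. FAK-WT libraries were all lower, with -0.58 (SE 0.12, adjusted p = 0.00216) against FAK-/- and -0.68 (SE 0.12, adjusted p = 0.000528) against FAK-kd cells on the log2 scale, and the last 2 lines overlapped. Hoxb9, a thoracic gene and the highest of the cluster, was at 46.6, 48.5 and 49.6 CPM in the FAK-WT libraries, 52.9, 52.0 and 55.7 in those of FAK-/- and 42.3, 47.7 and 43.9 in those of FAK-kd. Its log2 fold change was -0.14 (SE 0.09, adjusted p = 0.326) against FAK-/- and 0.13 (adjusted p = 0.371) against FAK-kd cells, which did not pass the test, though all FAK-WT libraries were below all FAK-/- libraries.

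Hoxb5 (ENSMUSG00000038700, chr11:96303336-96306121, plus strand), known from gut and vessel development, was the other HoxB gene to pass as lower against FAK-/- cells. Its level was 1.26, 2.50 and 1.70 CPM in the FAK-WT libraries, 3.98, 3.83 and 5.19 in those of FAK-/- and 3.51, 4.13 and 3.60 in those of FAK-kd, with FAK-WT replicates 2 and 3 below every other library. Replicate 1 had 1 count, under its floor of 3.78 CPM, and cannot be placed. The log2 fold change was -1.07 (SE 0.24, adjusted p = 0.00517) against FAK-/- and -0.86 (SE 0.24, adjusted p = 0.0199) against FAK-kd cells. It fell short of the minimum fold without FAK-/- replicate 3 (-0.91), without FAK-WT replicate 3 (-0.86) and with the GC correction (-0.99).

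Hoxb2, Hoxb3, Hoxb4 and Hoxb6 were between 6.66 and 41.1 CPM in every library. Hoxb2, a hindbrain gene, was at 12.6, 15.1 and 14.1 CPM in the FAK-WT libraries, 18.2, 17.6 and 27.1 in those of FAK-/- and 15.4, 17.0 and 14.8 in those of FAK-kd, with a log2 fold change of -0.54 (SE 0.15, adjusted p = 0.0236) against FAK-/- cells. Hoxb3 was at 11.3, 9.71 and 8.97 CPM in the FAK-WT libraries, 13.5, 13.4 and 17.9 in those of FAK-/- and 13.2, 11.9 and 12.3 in those of FAK-kd, with -0.66 (SE 0.14, adjusted p = 0.00264). In these genes FAK-WT and FAK-/- libraries did not overlap, but 26.5% and 52.7% of their 31-base words are shared, mostly with Hoxb3os on the other strand. Hoxb6 was at 30.2, 20.3 and 19.2 CPM in the FAK-WT libraries, 28.6, 29.6 and 41.1 in those of FAK-/- and 23.3, 27.8 and 25.2 in those of FAK-kd, with -0.68 (SE 0.16, adjusted p = 0.00584) and an overlap through FAK-WT replicate 1. Hoxb4, which expands blood stem cells when overexpressed, was at 10.1, 7.03 and 6.98 CPM in the FAK-WT libraries, 8.54, 8.32 and 11.9 in those of FAK-/- and 6.66, 7.79 and 6.76 in those of FAK-kd, with -0.42 (SE 0.17, adjusted p = 0.114), which did not pass the test. Against FAK-kd cells these 4 genes had log2 fold changes of -0.12 (adjusted p = 0.643), -0.40 (adjusted p = 0.0522), 0.03 (adjusted p = 1) and -0.30 (adjusted p = 0.224) in the order of their numbers, none past the adjusted p.

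Hoxb13, the most posterior gene of the cluster and a gene of the prostate, was listed at 0 counts in all 6 FAK-/- and FAK-kd libraries. FAK-WT libraries had 0, 6 and 6 counts. The adjusted p was 0.023 against FAK-/- and 0.0191 against FAK-kd cells, and with 3 counts in each library of the other line as the bound, FAK-WT cells were at least 1.09-fold and 1.24-fold higher. The adjusted p was between 0.0530 and 0.0699 against FAK-/- cells when FAK-WT replicate 2 or 3 or FAK-/- replicate 1 was left out, and between 0.0525 and 0.0599 against FAK-kd cells when FAK-WT or FAK-kd replicate 2 or 3 was. DESeq2 gave no adjusted p for this gene and filterByExpr removes it, so neither call could be made there. Both calls rest on 6 counts in each of 2 libraries.

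The HoxC cluster (chromosome 15) summed to 43.4 ± 6.07 CPM in the FAK-WT line, 57.0 ± 7.61 in the FAK-/- line and 52.2 ± 1.19 in the FAK-kd line (mean ± SD, n = 3), and the log2 fold changes of its 5 genes above 1 CPM lay between -0.77 and 0.23 in all 3 comparisons, short of the minimum fold. Hoxc6, a gene of the chest and mammary region, was at 13.8, 11.3 and 10.8 CPM in the FAK-WT libraries, 17.6, 16.8 and 22.9 in those of FAK-/- and 12.3, 12.3 and 13.2 in those of FAK-kd. FAK-/- libraries were above both other lines, with log2 fold changes of -0.77 (SE 0.13, adjusted p = 0.000615) for FAK-WT and -0.60 (SE 0.12, adjusted p = 0.0045) for FAK-kd against FAK-/- cells, while FAK-WT against FAK-kd cells gave -0.17 (adjusted p = 0.462). Hoxc4 was at 10.1, 9.31 and 8.88 CPM in the FAK-WT libraries, 12.4, 12.3 and 14.3 in those of FAK-/- and 13.2, 13.5 and 12.9 in those of FAK-kd. Here FAK-WT libraries were the low ones, with -0.51 (SE 0.11, adjusted p = 0.00483) against FAK-/- and -0.53 (SE 0.11, adjusted p = 0.00339) against FAK-kd cells.

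Hoxc8, which sets the identity of thoracic vertebrae and of forelimb motor neurons, was at 10.1, 8.86 and 8.36 CPM in the FAK-WT libraries, 9.98, 10.1 and 11.1 in those of FAK-/- and 12.7, 11.1 and 11.2 in those of FAK-kd. FAK-WT cells were below FAK-kd cells without overlap, at a log2 fold change of -0.42 (SE 0.12, adjusted p = 0.0225), and overlapped FAK-/- cells, at -0.25 (adjusted p = 0.182). Hoxc5 was at 10.1, 5.99 and 5.71 CPM in the FAK-WT libraries, 5.99, 6.94 and 7.43 in those of FAK-/- and 8.21, 7.52 and 8.05 in those of FAK-kd, and Hoxc9 was at 6.29, 4.92 and 5.36 CPM in the FAK-WT libraries, 6.86, 6.19 and 9.92 in those of FAK-/- and 5.97, 6.38 and 7.82 in those of FAK-kd. Neither passed the test against FAK-/- cells, at -0.15 (adjusted p = 0.569) and -0.56 (adjusted p = 0.0668), or against FAK-kd cells, at -0.38 (adjusted p = 0.141) and -0.37 (adjusted p = 0.248), and their libraries overlapped in both comparisons.

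The T-box genes summed to 121 ± 10.9 CPM in the FAK-WT line, 252 ± 1.37 in the FAK-/- line and 222 ± 10.3 in the FAK-kd line (mean ± SD, n = 3), with no overlap between any lines. Tbx18, Tbx3 and Tbx15 made up nearly all of this. Of the 7 genes in the table, 2 passed the threshold as lower and 1 as higher in FAK-WT against FAK-/- cells.

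Tbx18 (ENSMUSG00000032419, chr9:87702800-87731260, minus strand), a gene of the epicardium, the sinus node and the mesenchyme of the ureter and hair follicle, had the lowest adjusted p of all members. Its level was 28.9, 36.2 and 35.7 CPM in the FAK-WT libraries, 108, 108 and 99.6 in those of FAK-/- and 93.6, 96.2 and 104 in those of FAK-kd. FAK-WT libraries stood well below all others, and FAK-/- and FAK-kd libraries overlapped. The log2 fold change was -1.58 (SE 0.08, adjusted p = 3.57e-09) against FAK-/- and -1.47 (SE 0.08, adjusted p = 7.97e-09) against FAK-kd cells, and -0.10 (adjusted p = 0.473) between FAK-kd and FAK-/- cells. The 23 counts in FAK-WT replicate 1 did not decide this, since the calls stood without that library. D030062O11Rik, which overlaps its promoter window, and 2 other noncoding genes hold 19.5% of its 31-base words.

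Tbx3, a repressor needed for the limbs and the mammary gland, was at 32.7, 44.3 and 40.5 CPM in the FAK-WT libraries, 71.3, 73.6 and 86.3 in those of FAK-/- and 57.6, 65.5 and 60.2 in those of FAK-kd. The lines stood apart in the order FAK-WT, FAK-kd, FAK-/-, with log2 fold changes of -0.90 (SE 0.10, adjusted p = 1.42e-05) for FAK-WT against FAK-/-, -0.56 (SE 0.10, adjusted p = 0.000999) against FAK-kd and -0.34 (SE 0.09, adjusted p = 0.0398) for FAK-kd against FAK-/- cells. All 3 passed the adjusted p and none the minimum fold. Tbx15, which patterns the dermis, the coat and the skeleton, was at 46.6, 46.4 and 47.1 CPM in the FAK-WT libraries, 70.7, 69.0 and 67.1 in those of FAK-/- and 59.3, 63.3 and 65.5 in those of FAK-kd. FAK-WT libraries were the lowest and close to one another, with -0.56 (SE 0.08, adjusted p = 9.01e-05) against FAK-/- and -0.42 (SE 0.08, adjusted p = 0.00101) against FAK-kd cells.

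Tbx4 (ENSMUSG00000000094, chr11:85886422-85916097, plus strand), which lies next to Tbx2 on chromosome 11, was the T-box gene seen in FAK-WT cells and almost nowhere else. It had 0, 54 and 61 counts in the FAK-WT libraries, 1, 1 and 0 in those of FAK-/- and 0, 0 and 0 in those of FAK-kd. Replicates 2 and 3 of FAK-WT, at 1.44 and 1.76 CPM, were above every other library, and replicate 1 was at 0, in a library where 3 counts are 3.78 CPM. Against 3 counts in each library of the other line, FAK-WT cells were at least 10.5-fold higher than FAK-/- (adjusted p = 6.75e-05) and at least 11.9-fold higher than FAK-kd cells (adjusted p = 2.13e-05). Tbx5, its forelimb counterpart, had between 0 and 5 counts a library.

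Tbx20 (ENSMUSG00000031965, chr9:24718138-24774303, minus strand), a gene of the heart, was the only member past the threshold between FAK-kd and FAK-/- cells. It had 0, 5 and 2 counts in the FAK-WT libraries, 23, 12 and 12 in those of FAK-/- and 0, 1 and 1 in those of FAK-kd. FAK-/- libraries were above all FAK-kd libraries and above FAK-WT replicates 2 and 3, while the 0 counts of FAK-WT replicate 1 allow up to 3.78 CPM. FAK-kd libraries were at or below 3 counts, and on that bound FAK-kd cells were at least 5.78-fold lower than FAK-/- cells (adjusted p = 0.00116). For FAK-WT against FAK-/- cells the log2 fold change was -2.40 (SE 0.66, adjusted p = 0.0182), a call lost with DESeq2 (adjusted p = 0.187) and without FAK-WT replicate 2 or 3 or FAK-/- replicate 1 (adjusted p between 0.0540 and 0.165). Tbx20 was at most 0.689 CPM in any library. The plot of single members sets these patterns side by side.

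**Figure D4:**
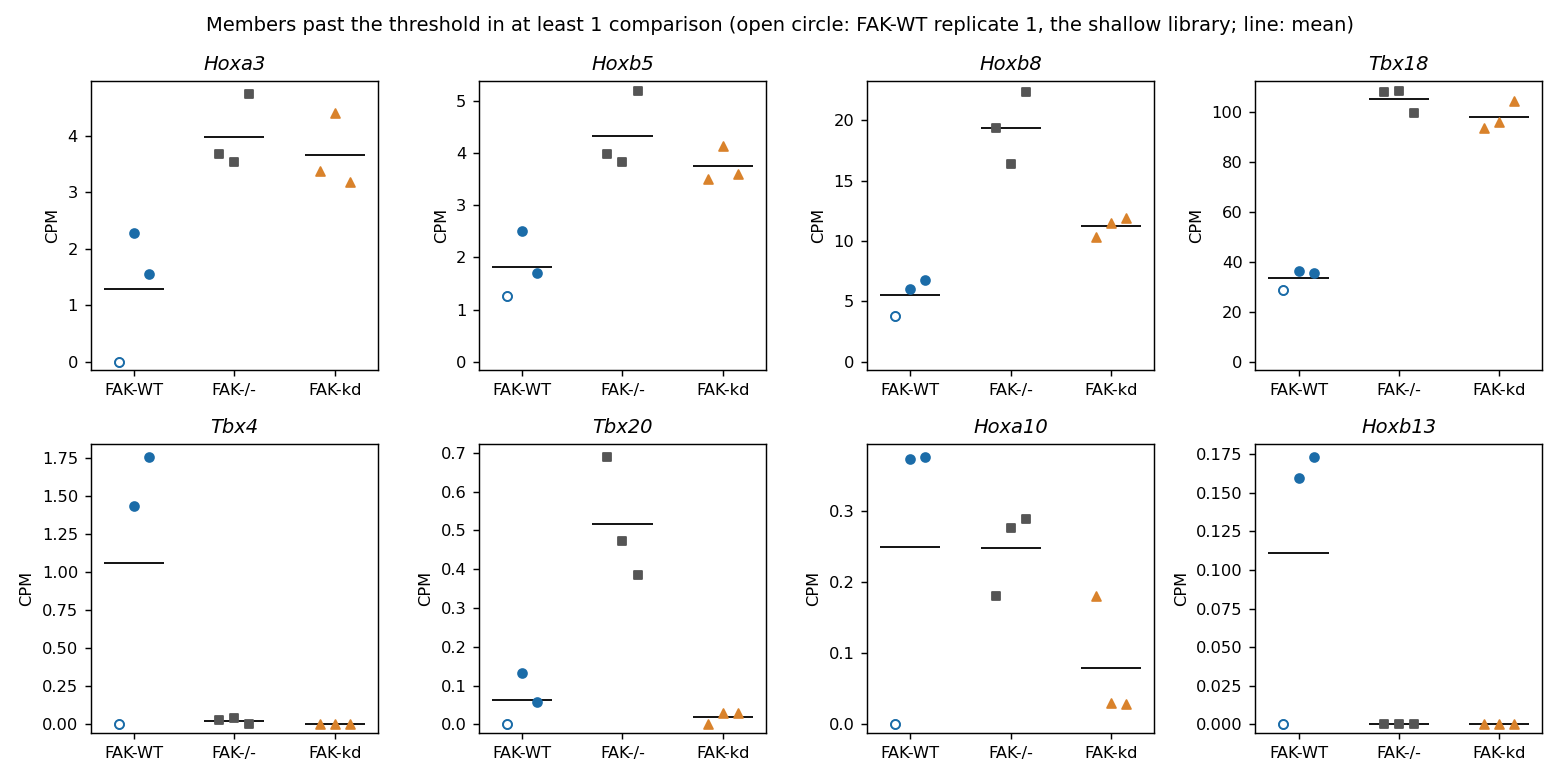
CPM of the 8 members past the threshold in at least 1 comparison, 1 point per library, with the mean of 3 libraries as a line and each panel on its own linear axis from 0. The open circle is FAK-WT replicate 1, and it lies at 0 in Hoxa3, Tbx4, Tbx20, Hoxa10 and Hoxb13.

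Genes that act on or with Hox and T-box factors were read from lists, at the same threshold. The lists were chosen with earlier results of these data known. Of the 9 Pbx, Meis and Pknox genes, the Hox cofactors, 0 passed it in any comparison with edgeR or DESeq2. Between FAK-WT and FAK-/- cells 4 were past an unadjusted p of 0.05, 2 in each direction. At edgeR's adjusted p alone, 1 was lower in FAK-WT against FAK-/- cells and 2 against FAK-kd cells, with 0 higher. Over all genes, 9.96% and 10.2% were lower in these comparisons. Of 27 Polycomb genes, which keep Hox genes silent, 0 passed the threshold with either tool. In FAK-WT against FAK-/- cells 3 were higher and 7 lower at an unadjusted p of 0.05. At edgeR's adjusted p alone, 1 was higher and 4 were lower there, where 8.01% and 9.96% of all genes were. Against FAK-kd cells 0 were higher and 2 lower at that level, where 7.58% and 10.2% of all genes were. In FAK-kd against FAK-/- cells 2 were higher and 0 lower, where 3.97% and 3.88% of all genes were. Of 15 Trithorax, MLL and H3K27 demethylase genes, the Y-linked Uty was lower in FAK-WT cells against both other lines. At the adjusted p alone, 3 of the 15 were lower and 0 higher in FAK-WT against FAK-/- cells, where 9.96% and 8.01% of all genes were. The 6 T-box genes outside the set that were in the table gave 0 calls with either tool, and 1 of them, Mga, passed at the adjusted p alone, FAK-WT above FAK-/- (log2 fold change 0.36, adjusted p = 0.0174). None of 19 noncoding RNA genes of the Hox clusters, Hotair and Hottip among them, had a row.

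Of 39 other homeobox and positional genes, 24 were in the table, 7 of them at the count floor. The median log2 fold change of the 24 was -0.62 for FAK-WT against FAK-/- cells, beside -0.54 for the members. At the adjusted p alone, 7 were lower and 0 higher, where 9.96% and 8.01% of all genes were. Against FAK-kd cells the median was -0.19, beside -0.30 for the members, with 4 lower and 1 higher, where 10.2% and 7.58% of all genes were. Emx2, a gene of the cortex and the urogenital system, was at 0.165 CPM in the FAK-WT line, 3.86 in the FAK-/- line and 7.27 in the FAK-kd line, with log2 fold changes of -3.95 (SE 0.27, adjusted p = 5.43e-08) against FAK-/- and -4.87 (SE 0.26, adjusted p = 5.53e-09) against FAK-kd cells. Irx3 was at 2.37, 5.71 and 6.71 CPM, with -1.01 (adjusted p = 0.00433) and -1.24 (adjusted p = 0.000815). Msx2 was lower against FAK-kd cells, at -2.05 (adjusted p = 0.0276), although FAK-WT replicate 1 alone stood at 3.78 CPM and the other FAK-WT libraries at 0.319 and 0.173. Of 18 genes of retinoic acid and FGF signalling, which set Hox and T-box domains in the embryo, 16 were in the table, and Crabp2, which carries retinoic acid to its receptors, was at 2.15, 3.54 and 16.8 CPM. Its log2 fold change was -3.08 (adjusted p = 2.38e-09) for FAK-WT against FAK-kd and 2.25 (adjusted p = 4.22e-08) for FAK-kd against FAK-/- cells. Aldh1a1, an enzyme that makes retinoic acid, was higher in FAK-WT than in FAK-kd cells (log2 fold change 1.67, adjusted p = 0.0472), at 0.894 CPM or less in every library. It had 0, 22 and 31 counts in FAK-WT and 6, 12 and 4 in FAK-kd libraries, which overlapped. DESeq2 called 0 genes of this list higher past the threshold there. At edgeR's adjusted p alone, 2 of the 16 were lower and 0 higher in FAK-WT against FAK-/- cells, where 9.96% and 8.01% of all genes were. Against FAK-kd cells 4 were lower and 3 higher, where 10.2% and 7.58% of all genes were.

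Differences between the lines that do not concern position were read beside these, since each FAK state is 1 line. Of 9 genes of the Y chromosome and Xist, 5 were in the table, all Y-linked, and Ddx3y was at 16.4 CPM in the FAK-WT line, 42.6 in the FAK-/- line and 41.8 in the FAK-kd line, with log2 fold changes of -1.29 (adjusted p = 3.32e-06) and -1.26 (adjusted p = 4.21e-06) for FAK-WT against the others. Uba1y was at 10.5, 61.1 and 0.971 CPM, and Eif2s3y at 4.69, 9.69 and 10.9. The list summed to between 34.0 and 47.0 CPM in FAK-WT, 121 and 142 in FAK-/- and 69.4 and 72.3 in FAK-kd libraries. The Y-linked genes thus separated the FAK-WT from the FAK-/- line and, by Uba1y, the FAK-kd from the FAK-/- line. Whether the Hox and T-box differences go with FAK or with such differences between clones cannot be told apart.

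Markers of cell types moved between the lines as well. Of 9 fibroblast markers 8 were in the table, and Pdgfra and Pdgfrb were past the threshold as lower in FAK-WT against each other line, with log2 fold changes of -1.44 and -2.04 against FAK-/- and -1.11 and -2.40 against FAK-kd cells. Other markers of the list passed as higher, Dcn in FAK-WT against FAK-/- cells (log2 fold change 2.24, adjusted p = 0.0426) and Col1a2 in FAK-kd against FAK-/- cells (1.29, adjusted p = 0.00469). Dcn had only 0, 19 and 13 counts in the FAK-WT libraries and 5, 0 and 3 in those of FAK-/-, and these libraries overlapped. DESeq2 called 0 markers of this list higher in that comparison. The list summed to between 1720 and 1806 CPM in FAK-WT, 1533 and 1754 in FAK-/- and 1527 and 2103 in FAK-kd libraries, mostly through Col3a1. Of 13 keratinocyte markers 10 were in the table, with sums between 229 and 244, 366 and 387, and 350 and 357 CPM in the same order of lines. Nearly all of these sums came from Itga6 and Itgb4, not from the keratins or Cdh1. Krt15 was lower in FAK-WT cells against both other lines (-2.68 and -2.88), Krt6a was higher in FAK-WT than in FAK-kd cells (3.09, adjusted p = 0.0236) on at most 8 counts a library, and Krt8 was higher in FAK-kd than in FAK-/- cells (2.13, adjusted p = 0.00548). The immune list, 4 of 6 in the table, summed to at most 3.65 CPM and the endothelial list, 4 of 4, to at most 2.05 CPM in any library, with Cdh5 higher in FAK-WT cells at 1.49 CPM. The part of these markers in the Hox and T-box differences was not tested.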

How the data were processed

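RNA-seq libraries of 3 SCC lines (FAK-WT, FAK-/-, FAK-kd), 3 of each, were analysed. Libraries were prepared with an unstranded TruSeq v2 kit and sequenced as paired ends. The deposited values are expected counts, which the authors estimated per transcript with kallisto 0.43.1 (per the submitters' processing notes, which also name DESeq2), summarized to genes and rounded to whole numbers, with no scaling to library size. The transcriptome release is not given in the sources used here, and no transcript lengths come with the counts, so none entered the fit. Groups came from the FAK group in the sample characteristics and replicate numbers from the sample titles, and 0 columns were left unmapped.

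All 19044 genes and 9 libraries were fitted at once with edgeR 4.0.16 in R 4.3.3 (TMM, estimateDisp, glmQLFit, glmQLFTest), with line as the single factor, after the steps had been tested on simulated data. P-values measure the spread between these libraries. Symbols, positions and lengths came from GENCODE for GRCm38. Values are given for members past the threshold or with a mean of at least 1 CPM in a line, and at most 4 genes of each other list are named, with cell type markers and Mga outside this rule. The members and lists were chosen with earlier results of these data known. Log2 deviations from the line means correlated with a mean r of -0.00768 between libraries of the same number in different lines (9 pairs) and 0.00353 between those of different numbers (18 pairs), so numbers were not used to pair libraries.

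Alternatives were DESeq2 1.42.0, its size factors in edgeR, library size alone, filterByExpr, fits of only the lines compared, at least 10 counts in every library, a replicate block, glmTreat, no minimum fold and leaving out each library. The GC correction (lowess, span 0.3) was chosen after seeing the data.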

Additional observations from a re-analysis of the deposited data

How the results depend on the processing

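Which members passed the threshold depended on low counts and on single libraries, while none of the 36 log2 fold changes of members past the adjusted p changed sign under the alternatives that gave a value. Of the 40 other fold changes of named members, 4 did. Hoxb4 in FAK-WT against FAK-kd cells was at -0.0083 with a replicate block and between -0.014 and 0.12 with 1 library left out. In FAK-kd against FAK-/- cells, with 1 library left out, Hoxa3 was between -0.28 and 0.016, Hoxc4 between -0.022 and 0.098 and Hoxc9 between -0.32 and 0.040. For FAK-WT against FAK-/- cells the count of members past the threshold was 7, and it was 1 with at least 10 counts in every library (a filter that keeps 10 of the members), 3 with glmTreat, 19 with no minimum fold and between 3 and 7 with 1 library left out, the lowest without FAK-WT replicate 3. For FAK-WT against FAK-kd cells it was 4, and it was 1 with filterByExpr, which keeps 24 members, 1 with at least 10 counts, 2 with DESeq2, 2 with glmTreat, 13 with no minimum fold and between 2 and 4 with 1 library left out, the lowest without FAK-WT replicate 3 or FAK-kd replicate 2 or 3. For FAK-kd against FAK-/- cells it was 1, and it was 0 with at least 10 counts, 4 with no minimum fold and between 1 and 2 with 1 library left out, the highest without FAK-kd replicate 1. At the adjusted p alone, 19 members were called for FAK-WT against FAK-/- cells, 9 with at least 10 counts and between 10 and 20 with 1 library left out, the lowest without FAK-WT replicate 3, when 4.54% of all genes were higher and 6.04% lower. For FAK-WT against FAK-kd cells 13 were called, 5 with at least 10 counts, 8 with DESeq2 and between 7 and 19 with 1 library left out, the lowest without FAK-WT replicate 3, when 4.49% of all genes were higher and 6.44% lower, and the highest without FAK-/- replicate 3, when 12.8% were higher and 15.3% lower, so calls over all genes moved the same way. For FAK-kd against FAK-/- cells 4 were called, and 7 with the GC correction, which was chosen after seeing the data and raised the share of all genes called lower from 3.88% to 5.95%. DESeq2 gives no adjusted p for 9 of the 35 members, and these were left out of its counts. Fewer members were tested under both filters, fewer samples with a library left out, and the cause of the other differences was not tested.

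With a replicate block, 5, 3 and 1 members were past the threshold in the 3 comparisons in the order above. The block dropped Hoxb13 (adjusted p = 0.14) and Tbx20 (0.0589) from the first, and in the second it dropped Hoxa10 (0.084) and Hoxb13 (0.121) and gained Hoxa3 (log2 fold change -1.06), so 2 of its 3 members are shared with the 4. The libraries share only a number, and no pairing is given. Depth limits the HoxD genes and those under 3.78 CPM in FAK-WT replicate 1, where 0 counts say little. Leaving that library out gave 7, 4 and 1.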
